A study of Glycine max with 6 samples.

Results

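The genes described here encode the enzymes of the Calvin cycle and of photorespiration in soybean (Glycine max) leaves. They were chosen by their best protein hit: every gene of the table of all libraries whose hit description contained any of 13 enzyme terms, such as ribulose bisphosphate, phosphoribulokinase or glycine dehydrogenase, was a member, whatever its expression. The rule found 87 of the 36827 genes listed, and 74 of them had enough reads to be tested, beside 26272 genes tested in all. The study sequenced RNA from trifoliolate leaves of plants aged 30 days. Of its 6 libraries, 3 were labelled GmRAV1-ox, their genotype written as GmRAV1, and 3 were labelled DN50, given as wild type. The labels name no promoter, no transgenic line and no plant behind a library, so the p-values measure the spread between these libraries, which may be technical.

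GmRAV1 belongs to the RAV family of transcription factors. Of 4 genes described as RAV-like or as AP2/ERF and B3 domain proteins, 3 were tested and 0 were called by edgeR, with log2 estimates between -0.26 and -0.04 and adjusted p between 0.673 and 0.961, and Glyma20g32730.1, with too few reads to test, had 12, 23 and 2 counts in the libraries labelled GmRAV1-ox, against 1, 4 and 3 counts in the DN50 libraries. Its counts were higher in replicates 1 and 2 of GmRAV1-ox than in any DN50 library, and in replicate 3 they were not. Glyma10g34760.1, the RAV-like gene, whose hit has the symbol RAV, had 48, 48 and 42 counts in the libraries labelled GmRAV1-ox, against 27, 32 and 73 counts in the DN50 libraries (log2 -0.04, edgeR adjusted p = 0.961). Which of the 4 genes is GmRAV1 is not given in the sources used here, so these transcripts gave no check of the label and the groups are called by their labels throughout. Library totals ran over a narrow range, 7208496 to 7684540 counts. The libraries labelled GmRAV1-ox did not stand together: on the first principal component of all tested genes, which held 62.6% of the variance, replicates 1 and 2 lay at 71.6 and 100.1, while replicate 3 lay at -16.5, inside the DN50 range of -81.0 to -10.3. Markers were those of leaf tissue: all 28 genes for chlorophyll a-b binding proteins of the light-harvesting antenna were read in every library, no leghemoglobin gene, a nodule marker, was listed, and the 1 seed storage protein gene was listed at 0 to 0.13 FPKM.

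In the Calvin cycle of the chloroplast stroma, Rubisco fixes carbon dioxide on ribulose bisphosphate, a reduction phase turns the product into triose phosphates, and a regeneration phase of aldolases, phosphatases, transketolase, epimerase and phosphoribulokinase rebuilds the acceptor. When Rubisco binds oxygen instead, phosphoglycolate forms, and photorespiration returns most of its carbon through glycolate oxidase in the peroxisome, glycine decarboxylase in the mitochondrion, and hydroxypyruvate reductase and glycerate kinase on the way back to the chloroplast. Glycolysis in the cytosol uses related enzymes that carry the same names, and the rule took them too. The word glycerate also brought in phosphoglycerate mutase of glycolysis and phosphoglycerate dehydrogenase, the first enzyme of the phosphorylated route of serine synthesis.

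By description the 87 genes fell into 21 enzyme types. A plastid location was written in the descriptions of 44, a cytosolic location in those of 13, a mitochondrial location in those of 6 and a peroxisomal location in those of 5, while 19 stated none. Levels are compared between genes as FPKM, which divides by gene length. The pair of Rubisco small subunit genes led by far, Glyma19g06370.1 with a mean of 39686 FPKM over the 6 libraries and Glyma19g06340.1 with 33726 FPKM. The A subunit gene of plastid glyceraldehyde-3-phosphate dehydrogenase (GAPDH), Glyma16g04940.1, followed at 3532 FPKM and the plastid phosphoglycerate kinase Glyma15g41540.1 at 2382 FPKM. At the other end, the 13 untested genes had mean levels of at most 4.61 FPKM, among them extra copies of phosphoglycerate mutase (3 genes), phosphoglycerate dehydrogenase (3 genes) and glycolate oxidase (2 genes). Together the 87 genes took 7.22%, 6.27% and 8.74% of all counts in the libraries labelled GmRAV1-ox, against 10.2%, 8.36% and 6.95% in the DN50 libraries, and these ranges overlapped.

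**Figure D1:**
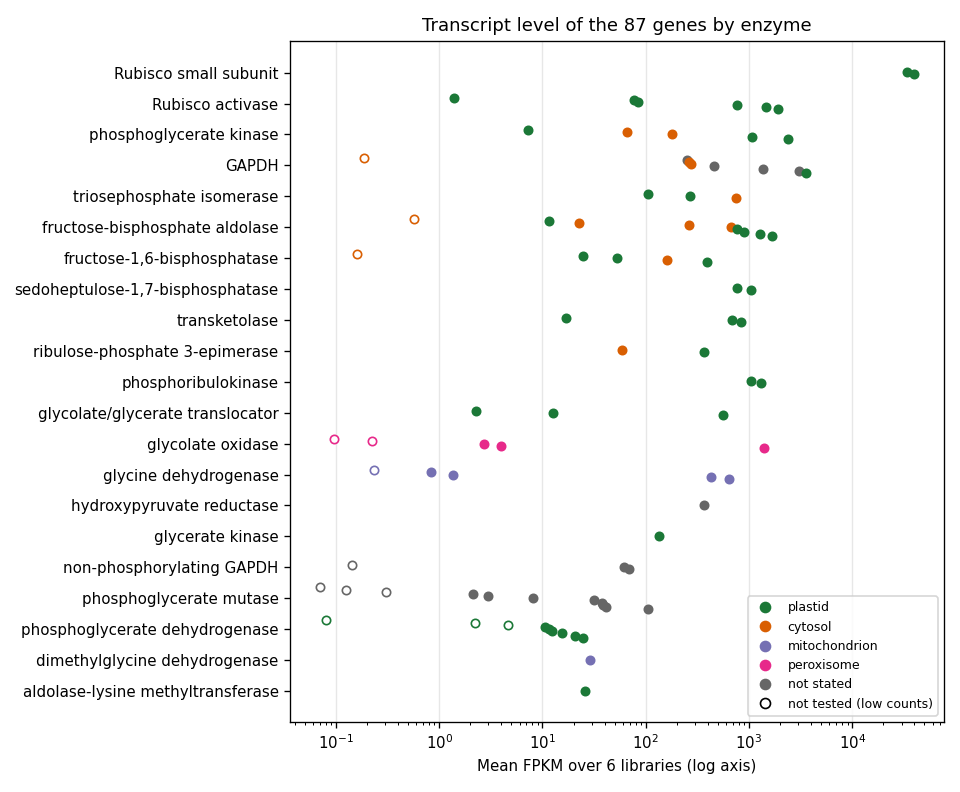
Mean FPKM over the 6 libraries (horizontal log axis) of each of the 87 genes, 1 point a gene, in rows by enzyme; colours give the compartment that the description states and open circles the 13 genes with too few reads to test. The 2 Rubisco small subunit genes stand far to the right, and most enzymes have 1 or a few strong genes beside weak copies.

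Against DN50, 1 of the 74 tested genes passed edgeR's quasi-likelihood test at an adjusted p under 0.05, and it was lower in the libraries labelled GmRAV1-ox. That is 1.35% of the genes, where 0.579% of all tested genes were called lower. None was called higher, where 0.122% of all tested genes were. Over all genes those shares stand for 32 called higher and 152 lower, or 84 and 149 without scaling factors. The log2 estimates nevertheless leaned to one side: 51 of the 74 lay below 0 and their median was -0.30, against a median of 0.01 and 48.9% below 0 over all tested genes. Without scaling factors the median of all genes moved to 0.20 and that of the 74 genes to -0.11. Leaving out replicate 2 of GmRAV1-ox moved the median of the 74 genes to -0.18, and leaving out replicate 3 moved it to -0.48. Groups that did not overlap, taken on CPM (library-scaled counts after TMM scaling, the unit of every library value below), were found for 20 genes with all libraries labelled GmRAV1-ox lower (27.0%, beside 13.1% of all tested genes) and for 6 genes with all of them higher (8.11%, beside 12.9%). At an unadjusted p under 0.05 the counts were again 20 lower (27.0%, beside 10.7%) and 6 higher (8.11%, beside 10.6%). DESeq2 called 10 genes lower (13.5%, beside 3.97% of all genes with an adjusted p) and 2 higher (2.70%, beside 2.53%). The antenna genes leaned the same way: 27 of 28 estimates for chlorophyll a-b binding proteins lay below 0 (median -0.60, 0 called by edgeR). At an unadjusted p under 0.05, 5 of the 28 were lower, beside 10.7% of all tested genes. Without overlap, 13 of the 28 were lower, beside 13.1%, and 1 was higher, beside 12.9%. The summed level of the 28 genes was 37902 to 53425 FPKM in the libraries labelled GmRAV1-ox, against 54455 to 65518 FPKM in the DN50 libraries. On summed CPM the ranges overlapped, at 24146 to 41633 CPM in the libraries labelled GmRAV1-ox, against 40692 to 57869 CPM in the DN50 libraries. The part of the plastid content of the leaves in these values was not tested, and in whole leaves fewer cells of a type and less RNA per cell cannot be told apart.

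**Figure D2:**
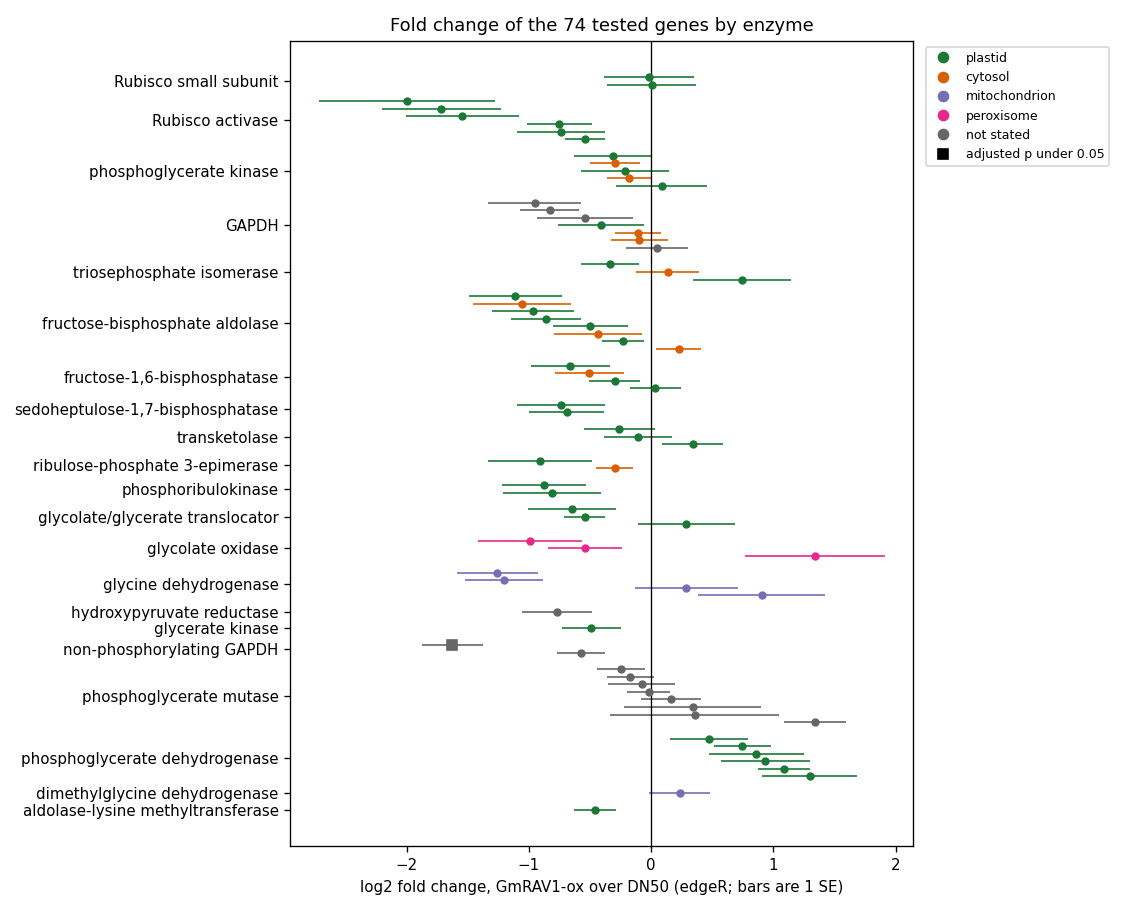
Log2 fold change of the 74 tested genes, GmRAV1-ox over DN50 (horizontal axis; points are edgeR estimates, bars 1 standard error), in rows by enzyme and coloured by the stated compartment. The square is the 1 gene with an adjusted p under 0.05; all 6 Rubisco activase estimates lie below 0 and all 6 phosphoglycerate dehydrogenase estimates above 0.

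The gene that passed was Glyma02g36370.1, whose best hit carries the symbol ALDH11A1 and is an NADP-dependent GAPDH. This non-phosphorylating enzyme belongs to the aldehyde dehydrogenases and not to the Calvin cycle: it oxidises triose phosphate straight to 3-phosphoglycerate and yields NADPH in the cytosol of plant cells. It had 46.2, 43.1 and 46.2 CPM in the libraries labelled GmRAV1-ox, against 166, 91.2 and 161 CPM in the DN50 libraries. Each of the first values lay below each of the second, and the libraries labelled GmRAV1-ox were nearly equal (45.2 ± 1.81 CPM, against 139 ± 41.9 CPM in DN50; mean ± SD, n = 3 each). The transcript fell by 1.63 on the log2 scale, a level 3.09-fold lower (95% interval of the ratio 0.217 to 0.483; edgeR adjusted p = 0.0421). The call was lost when single libraries were left out, namely replicate 1 (edgeR adjusted p = 0.189) or 2 (0.149) of GmRAV1-ox and replicate 1 (0.219) or 3 (0.222) of DN50, and narrowly with limma on log2 FPKM (adjusted p = 0.0508 and 0.0560). Its companion Glyma17g08310.1, expressed at a like level (69.3 FPKM, beside 61.8 FPKM), had 81.6, 94.1 and 67.9 CPM in the libraries labelled GmRAV1-ox, against 137, 109.7 and 115 CPM in the DN50 libraries, also without overlap (log2 -0.57 ± 0.20, edgeR adjusted p = 0.163). After a log2 estimate, ± gives its standard error, here and below. Reads of both genes were split with other genes in at least 1 library, so their values are uncertain by that share.

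Rubisco itself showed no difference in transcript beyond the spread. The small subunit gene Glyma19g06370.1 had 18111, 15065 and 24791 CPM in the libraries labelled GmRAV1-ox, against 23601, 21117 and 13090.2 CPM in the DN50 libraries. Glyma19g06340.1, which has the same best hit (RBCS2) and so may share its reads, had 15386, 12545 and 21039 CPM in GmRAV1-ox, against 20712, 17924 and 10925 CPM in DN50. Both groups spanned nearly the same range, with the highest value of Glyma19g06370.1 in GmRAV1-ox replicate 3 and the lowest in DN50 replicate 3. The ratio of 1.00 for Glyma19g06370.1 had a 95% interval of 0.562 to 1.79, which leaves room for a difference in either direction, and the sign of both estimates (0.00 and -0.02) depended on the scaling or on single libraries. No gene for the large subunit, which is encoded in the plastid genome, was among the members.

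Rubisco activase, the ATP-driven chaperone that frees Rubisco of inhibitory sugar phosphates, had estimates below 0 in all 6 genes (median -1.15). The groups did not overlap for 5 of the 6, where 13.1% of all tested genes were lower without overlap, and 0 were called. Without DN50 replicate 1 the median of the activase estimates was -0.71. Glyma11g34230.3, the strongest at 1892 FPKM, had 1281, 869.6 and 1793 CPM in the libraries labelled GmRAV1-ox, against 6220.2, 3246 and 2039 CPM in the DN50 libraries (log2 -1.54 ± 0.46, edgeR adjusted p = 0.135). Glyma18g04080.1, with the hit symbol RCABETA, had 770.4, 515 and 1454 CPM in GmRAV1-ox, against 4719, 2346 and 1933 CPM in DN50 (log2 -1.72 ± 0.49, edgeR adjusted p = 0.125). In both genes DN50 replicate 1 was far above the other DN50 libraries and GmRAV1-ox replicate 3 came closest to DN50. The weaker Glyma13g44940.1 was much more even, with 80.3, 83.7 and 92.1 CPM in the libraries labelled GmRAV1-ox, against 132, 117 and 123 CPM in the DN50 libraries (log2 -0.54 ± 0.17, edgeR adjusted p = 0.138). Glyma14g07270.1 likewise had 96.4, 84.9 and 65.3 CPM in GmRAV1-ox, against 183, 131 and 101 CPM in DN50. Glyma02g41700.1, with the symbol RCAALPHA, was the activase whose groups overlapped, at 778, 600.4 and 1118 CPM in GmRAV1-ox, against 1982, 1232 and 950.1 CPM in DN50, through GmRAV1-ox replicate 3 and DN50 replicate 3. Glyma03g12070.1 was barely read, at 0.898, 0.478 and 1.16 CPM in GmRAV1-ox, against 7.08, 1.71 and 1.45 CPM in DN50. Summed over the 6 genes, activase transcripts reached 2589 ± 723 FPKM in the libraries labelled GmRAV1-ox and 6015 ± 2434 FPKM in the DN50 libraries (mean ± SD, n = 3 each), a ratio of 0.431. The small subunit sum gave 77914 ± 12634 FPKM in the libraries labelled GmRAV1-ox and 68909 ± 15533 FPKM in the DN50 libraries, a ratio of 1.13. These FPKM are not TMM-scaled. On summed CPM, which is, the ratios were 0.380 for activase and 0.996 for the small subunit. No test of the difference between the ratios of activase and the small subunit was run.

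**Figure D3:**
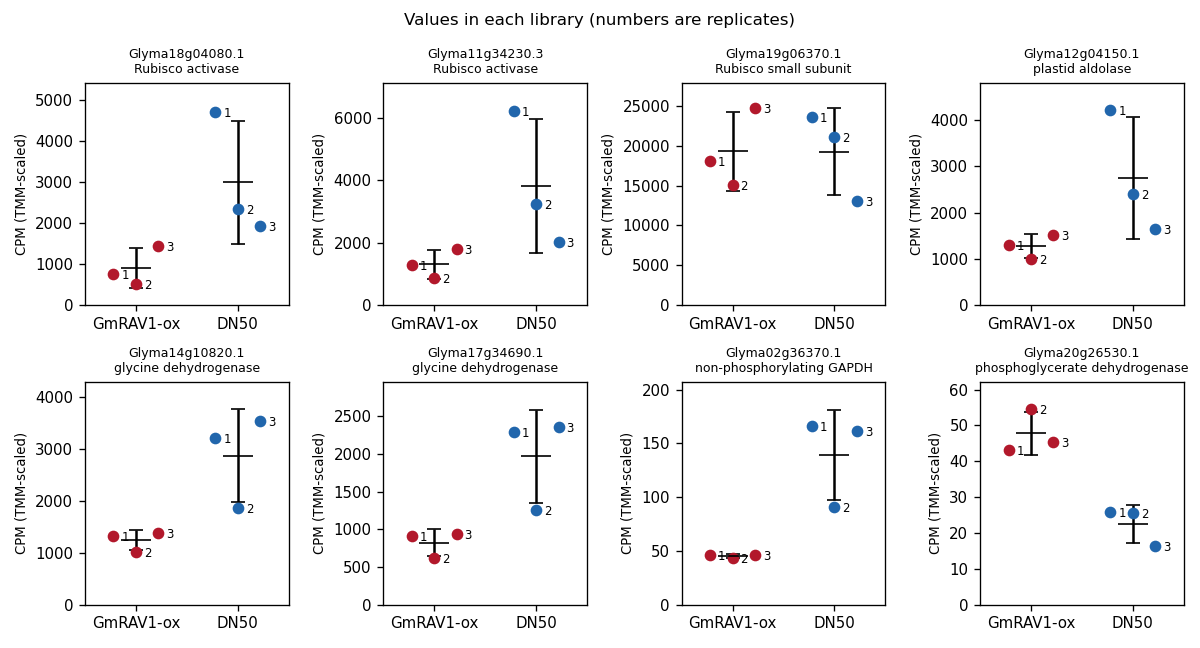
TMM-scaled CPM in each library (vertical axes, from 0) for 8 of the genes, GmRAV1-ox left and DN50 right; points are libraries numbered by replicate, horizontal lines means and bars 1 SD (n = 3 each). The groups overlap for the Rubisco small subunit gene and do not overlap for the other 7; only Glyma02g36370.1 among them had an edgeR adjusted p under 0.05.

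In the reduction phase 3-phosphoglycerate is phosphorylated by phosphoglycerate kinase and reduced by GAPDH. Phosphoglycerate kinase was even: none of the 5 genes separated the groups, and the strongest, Glyma15g41540.1, had 2930.1, 2107 and 4452 CPM in the libraries labelled GmRAV1-ox, against 4712, 3608 and 2695 CPM in the DN50 libraries (log2 -0.21 ± 0.36, edgeR adjusted p = 0.761). Its cytosolic counterpart Glyma08g17600.1 had 76.5, 57.2 and 75.5 CPM in GmRAV1-ox, against 97.6, 90.2 and 69.1 CPM in DN50. Of the 7 tested GAPDH genes, 6 had estimates below 0 and 2 were lower without overlap, beside 13.1% of all tested genes. The B subunit of the plastid enzyme, Glyma06g01850.1, was 1 of these, with 1115, 856 and 1876 CPM in the libraries labelled GmRAV1-ox, against 3428, 2084 and 1934 CPM in the DN50 libraries (log2 -0.95 ± 0.38, edgeR adjusted p = 0.205). The other was Glyma06g18110.1, whose hit has the symbol GAPC1 of the cytosolic form, with 361, 296 and 316 CPM in GmRAV1-ox, against 735, 493 and 503 CPM in DN50 (log2 -0.83 ± 0.24, edgeR adjusted p = 0.128). Genes for the A subunit overlapped: Glyma16g04940.1 had 3474, 2541 and 4806 CPM in GmRAV1-ox, against 6375, 4456 and 3581 CPM in DN50, and its estimate was -0.41 ± 0.35 on the log2 scale. Triosephosphate isomerase, which interconverts the triose phosphates, was mixed, with estimates from -0.34 to 0.74 over its 3 genes. Its strongest gene, the cytosolic Glyma15g04290.1, had 568, 591 and 504 CPM in GmRAV1-ox, against 632, 523 and 361 CPM in DN50. The plastid gene Glyma13g20930.1 had 121, 118 and 95.3 CPM in the libraries labelled GmRAV1-ox, all above the 77.7, 93.9 and 28.1 CPM of the DN50 libraries, where replicate 3 was far below the others (log2 0.74 ± 0.40, edgeR adjusted p = 0.323).

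Regeneration of ribulose bisphosphate leaned down at most of its steps, with 0 genes called. Fructose-bisphosphate aldolase, which joins triose phosphates, had 5 tested plastid genes, all with estimates below 0 (median -0.86). Of the 5, 3 were lower without overlap, beside 13.1% of all tested genes. The strongest, Glyma12g04150.1, had 1309, 996 and 1517 CPM in the libraries labelled GmRAV1-ox, against 4207, 2406 and 1642 CPM in the DN50 libraries (log2 -1.11 ± 0.38, edgeR adjusted p = 0.165). Glyma11g11870.1 had 729, 627 and 580.4 CPM in GmRAV1-ox, against 1554, 1144 and 822 CPM in DN50, and Glyma11g11900.1, which has the same best hit, had 729, 599 and 821 CPM in GmRAV1-ox, against 2059.9, 1175 and 964 CPM in DN50. Among these 3 genes DN50 replicate 1 was the highest library each time. The plastid aldolase Glyma04g01020.1 overlapped, at 1116, 912 and 1692 CPM in GmRAV1-ox, against 2118, 1482 and 1653 CPM in DN50. A cytosolic aldolase, Glyma14g01470.1, had an estimate of -1.06 ± 0.40 with overlap through GmRAV1-ox replicate 3, at 395, 252 and 723 CPM in GmRAV1-ox, against 1143, 705 and 999 CPM in DN50.

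Sedoheptulose-1,7-bisphosphatase, a light-regulated phosphatase of the regeneration phase, had both genes below 0. Glyma18g03440.1 had 875, 687 and 1212 CPM in the libraries labelled GmRAV1-ox, against 1939, 1269.5 and 1271 CPM in the DN50 libraries, without overlap (log2 -0.69 ± 0.31, edgeR adjusted p = 0.244). The other gene, Glyma11g34900.1, had 580.0, 434 and 983 CPM in GmRAV1-ox, against 1481, 948 and 907 CPM in DN50, and overlapped through GmRAV1-ox replicate 3. Phosphoribulokinase, which makes the acceptor of carbon dioxide, showed the same picture: Glyma09g34410.1 had 819.8, 644 and 1244 CPM in GmRAV1-ox, against 2241, 1271 and 1463 CPM in DN50 (log2 -0.88 ± 0.34, edgeR adjusted p = 0.199). The stronger Glyma01g01370.1 had 986, 749 and 1743 CPM in GmRAV1-ox, against 2941, 1564 and 1608 CPM in DN50, and overlapped because GmRAV1-ox replicate 3 was above 2 of the DN50 libraries. The plastid ribulose-phosphate 3-epimerase Glyma05g00910.2 had 163, 121 and 344 CPM in GmRAV1-ox, against 546, 301 and 334 CPM in DN50, again with replicate 3 of GmRAV1-ox among the DN50 values. Plastid fructose-1,6-bisphosphatase followed with Glyma18g41940.1 at 372, 262 and 478 CPM in GmRAV1-ox, against 811, 516 and 435 CPM in DN50 (log2 -0.66 ± 0.32, edgeR adjusted p = 0.278). Transketolase, which moves carbon pairs between sugar phosphates, was the even step here: Glyma20g38720.1 had 1865, 1562 and 1939 CPM in GmRAV1-ox, against 2462, 1849 and 1473 CPM in DN50 (log2 -0.11 ± 0.28), and that estimate was above 0 without scaling factors. The weak transketolase gene Glyma03g03200.1 had 49.3, 45.4 and 24.98 CPM in GmRAV1-ox, against 30.02, 31.9 and 32.7 CPM in DN50.

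Glycine dehydrogenase, the mitochondrial step of photorespiration, is the decarboxylating P protein of the glycine cleavage complex. Of its 4 tested genes 2 had estimates below 0 and 2 above 0 (median -0.46, or -0.73 without DN50 replicate 2 and -0.20 without DN50 replicate 3). The 2 strong genes were those below 0, and their groups did not overlap, where 13.1% of all tested genes were lower without overlap. Glyma14g10820.1 had 1331, 1018 and 1388 CPM in the libraries labelled GmRAV1-ox, against 3207, 1859.6 and 3548 CPM in the DN50 libraries (log2 -1.20 ± 0.32, edgeR adjusted p = 0.112). Glyma17g34690.1 had 913, 614 and 943 CPM in GmRAV1-ox, against 2297, 1257 and 2356 CPM in DN50 (log2 -1.26 ± 0.33, edgeR adjusted p = 0.112). Here GmRAV1-ox replicate 3 lay with the other libraries of its label, and the lowest DN50 library was replicate 2. Another P protein gene, Glyma04g05420.1, was read at 1.36 FPKM only and had an estimate of the other sign, 0.90 ± 0.52, with 6.54, 7.18 and 1.73 CPM in GmRAV1-ox, against 1.85, 2.85 and 3.56 CPM in DN50. Summed over its 5 genes, glycine dehydrogenase reached 698 ± 82.2 FPKM in the libraries labelled GmRAV1-ox and 1447 ± 482 FPKM in the DN50 libraries (mean ± SD, n = 3 each), a ratio of 0.482. On summed CPM the ratio was 0.429.

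The other photorespiratory steps had estimates below 0 in their strongest gene and 0 calls. Glycolate oxidase Glyma08g18750.3, which makes glyoxylate and hydrogen peroxide in the peroxisome, had 1200.1, 902 and 1632 CPM in the libraries labelled GmRAV1-ox, against 2227, 1698 and 1513 CPM in the DN50 libraries (log2 -0.54 ± 0.30, edgeR adjusted p = 0.333). A weak copy, Glyma08g10250.1, had an estimate of 1.34 ± 0.57 from 3.21, 6.82 and 1.73 CPM in GmRAV1-ox, against 1.54, 0.854 and 2.24 CPM in DN50, with overlap. The hydroxypyruvate reductase Glyma20g24200.1 did not overlap, at 294, 228 and 413 CPM in GmRAV1-ox, against 661, 480.4 and 451 CPM in DN50 (log2 -0.77 ± 0.29, edgeR adjusted p = 0.185). Glycerate kinase, the last step, had 1 gene, Glyma13g43820.1, with 136, 107 and 184 CPM in GmRAV1-ox, against 226, 179.7 and 193 CPM in DN50 and overlap through GmRAV1-ox replicate 3. The plastid glycolate/glycerate translocator, which exchanges the first and last metabolites of the route, had a strong gene that overlapped, Glyma16g15800.1 (567, 413 and 981 CPM in GmRAV1-ox, against 1263, 785 and 1029 CPM in DN50). Its weaker gene Glyma01g01340.1 did not overlap, at 14.9, 13.6 and 12.99 CPM in GmRAV1-ox, against 21.1, 17.4 and 22.2 CPM in DN50 (log2 -0.55 ± 0.17, edgeR adjusted p = 0.138).

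Of the enzymes outside both routes that the word glycerate brought in, phosphoglycerate dehydrogenase lay on the other side and phosphoglycerate mutase did not. Phosphoglycerate dehydrogenase diverts 3-phosphoglycerate into serine in plastids, a source of serine apart from photorespiration. All 6 tested genes had estimates above 0 (median 0.90), and 4 were higher without overlap, beside 12.9% of all tested genes. EdgeR called 0 of the 6, and DESeq2 called 1 of them, where it called 2.53% of all genes higher. Glyma20g26530.1 had 43.2, 54.5 and 45.5 CPM in the libraries labelled GmRAV1-ox, against 25.7, 25.5 and 16.4 CPM in the DN50 libraries (log2 1.09 ± 0.21, edgeR adjusted p = 0.0692). The strongest gene, Glyma10g40750.1, had 57.2, 63.5 and 35.5 CPM in GmRAV1-ox, against 28.02, 34.3 and 30.9 CPM in DN50 (log2 0.75 ± 0.23, edgeR adjusted p = 0.141). In Glyma07g00540.1 the groups overlapped, at 43.9, 43.9 and 16.3 CPM in GmRAV1-ox, against 19.4, 23.9 and 14.2 CPM in DN50, because GmRAV1-ox replicate 3 lay with DN50. Whether the 6 tested genes are 6 separate loci was not tested: Glyma20g26530.1 and Glyma20g26540.1 have the same best hit, as do Glyma10g40750.1 and Glyma10g40760.1. Summed over 9 genes, the enzyme reached 137 ± 38.7 FPKM in the libraries labelled GmRAV1-ox and 67.5 ± 17.3 FPKM in the DN50 libraries (mean ± SD, n = 3 each), a ratio of 2.03. On summed CPM the ratio was 1.78.

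Phosphoglycerate mutase of lower glycolysis was spread around 0, with 4 of its 8 tested genes on either side. Its strongest gene, Glyma09g40690.1, had 197, 196 and 144 CPM in the libraries labelled GmRAV1-ox, against 193, 169.9 and 118 CPM in the DN50 libraries. The weak gene Glyma04g11380.1 was the exception, with 12.96, 10.05 and 10.3 CPM in GmRAV1-ox, against 3.39, 4.13 and 5.54 CPM in DN50, no overlap and the largest positive estimate of all 74 genes (log2 1.34 ± 0.25, edgeR adjusted p = 0.0635). Dimethylglycine dehydrogenase, matched by name alone, had 43.5, 44.3 and 23.8 CPM at Glyma05g30270.1 in GmRAV1-ox, against 35.6, 27.6 and 31.9 CPM in DN50. A chloroplast methyltransferase that modifies aldolase, Glyma05g07100.1, had 32.2, 31.7 and 32.5 CPM in GmRAV1-ox, against 45.4, 35.8 and 51.4 CPM in DN50 (log2 -0.46 ± 0.17, edgeR adjusted p = 0.187).

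Sorted by place, the 34 tested Calvin cycle genes with a plastid or unstated location had a median estimate of -0.54, with 28 below 0 and 12 lower without overlap (35.3%, beside 13.1% of all tested genes). Because its description stated no place, Glyma06g18110.1, whose hit has the symbol GAPC1 of the cytosolic form, was counted among the 34 and the 12. It was therefore not counted among the cytosolic counterparts. The 12 tested genes of photorespiration had a median of -0.54, with 8 below 0 and 4 lower without overlap (33.3%, beside 13.1%). For the 10 tested cytosolic counterparts the median was -0.24, with 8 below 0 and 1 of the 10 lower without overlap, beside 13.1%, and the median moved to -0.04 without scaling factors. The 18 other matches had a median of 0.29. Over the Calvin cycle genes, the median position of a library relative to the DN50 mean was -0.60, -0.87 and -0.15 (log2) for the libraries labelled GmRAV1-ox, against 0.45, -0.09 and -0.37 for the DN50 libraries. GmRAV1-ox replicate 3 therefore lay above DN50 replicate 3, and replicate 2 was the lowest of all. For photorespiration the positions were -0.48, -0.85 and -0.24 in GmRAV1-ox, against 0.15, -0.17 and 0.22 in DN50, which did not overlap.

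**Figure D4:**
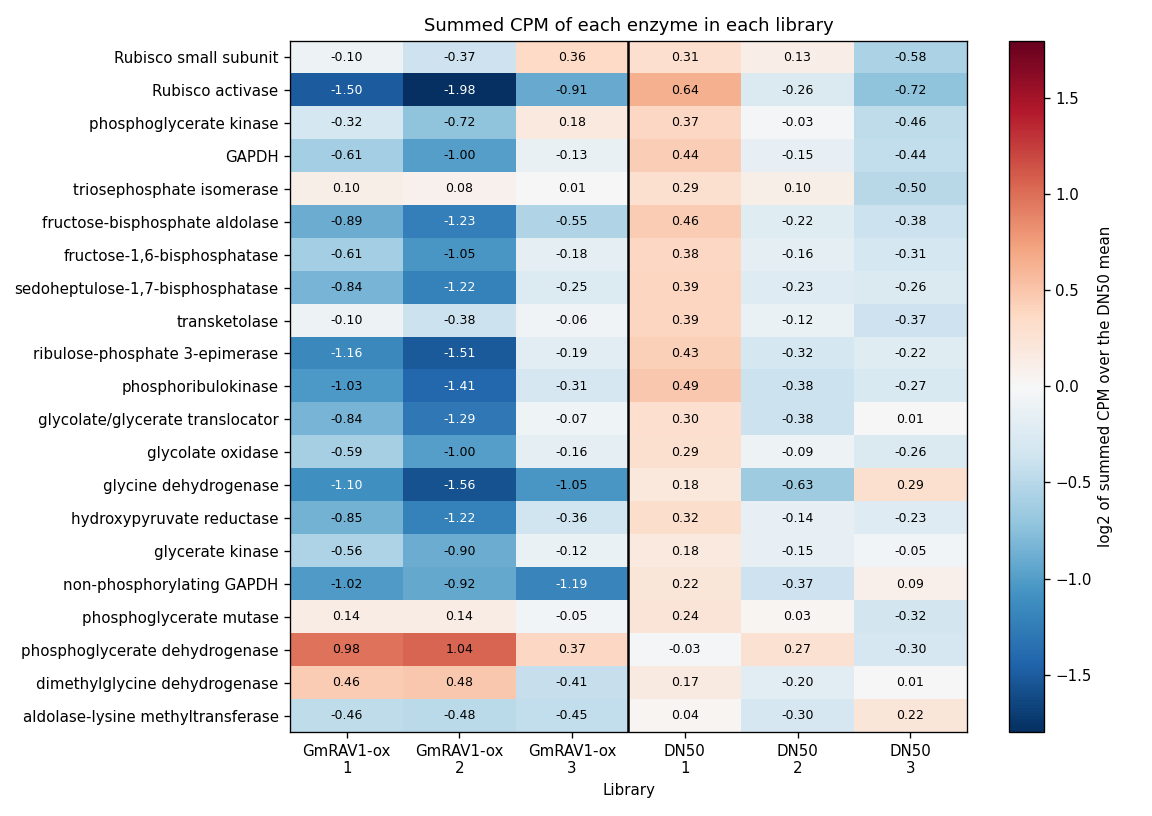
Log2 of the summed TMM-scaled CPM of each enzyme in each library over the DN50 mean; rows are enzymes, columns the 3 GmRAV1-ox and then the 3 DN50 libraries, blue below and red above the DN50 mean. Rubisco activase runs from -1.98 to -0.91 in the GmRAV1-ox columns, against -0.72 to 0.64 in the DN50 columns, and GmRAV1-ox replicate 3 is the palest of its label in most rows.

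Leaving out GmRAV1-ox replicate 3 changed the number of calls more than any other library did. That library was the one of its label inside the DN50 range on the first principal component. Leaving out a library for such a position narrows the spread within its label, so the p-values of this fit are likely too small. Without that library edgeR called 17 of the 74 genes lower (23.0%, beside 9.66% of all tested genes) and 8 higher (10.8%, beside 8.62%). It called 0 genes when replicate 1 or 2 of GmRAV1-ox was left out instead, or replicate 1 or 3 of DN50, and 1 gene when replicate 2 of DN50 was. The 17 comprised 3 activase genes, both phosphoribulokinase genes, 2 aldolases, 2 glycine dehydrogenases and 1 gene each of GAPDH, fructose-1,6-bisphosphatase, sedoheptulose-1,7-bisphosphatase, ribulose-phosphate 3-epimerase, the translocator, hydroxypyruvate reductase, glycerate kinase and the non-phosphorylating GAPDH. The 2 aldolases, Glyma14g01470.1 and Glyma02g47280.1, and the fructose-1,6-bisphosphatase, Glyma16g28310.1, were all cytosolic forms by description. No plastid gene of these enzymes was among the 17. Not called were the plastid aldolases Glyma12g04150.1 (edgeR adjusted p = 0.0609), Glyma11g11900.1 (0.0619), Glyma04g01020.1 (0.0760) and Glyma11g11870.1 (0.103). The plastid fructose-1,6-bisphosphatase Glyma18g41940.1 was not called either (edgeR adjusted p = 0.0804). Of the 8, 4 were phosphoglycerate dehydrogenases. The others were weak copies: the glycine dehydrogenase Glyma04g05420.1 at 1.28 (edgeR adjusted p = 0.0281), the glycolate oxidase Glyma08g10250.1 at 1.66 (0.0429), the transketolase Glyma03g03200.1 at 0.57 (0.0410) and the mutase Glyma04g11380.1 at 1.37 (0.0118). In that fit the activase Glyma18g04080.1 stood at -2.24 (edgeR adjusted p = 0.0116), the epimerase Glyma05g00910.2 at -1.49 (0.0134) and the dehydrogenase Glyma10g40750.1 at 0.94 (0.00821).

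Enzymes of the same routes that the rule's terms missed were read as 9 lists with 106 genes, of which 89 were tested. EdgeR called 0 of the 89. At an unadjusted p under 0.05, 13 were lower (14.6%, beside 10.7% of all tested genes) and 10 higher (11.2%, beside 10.6%). DESeq2 called 4 lower (4.49%, beside 3.97%) and 3 higher (3.37%, beside 2.53%), and limma called 1 or 0, depending on the pseudocount. These shares of the 89 genes lay near those of all genes. Carbonic anhydrase, which interconverts carbon dioxide and bicarbonate in the stroma, had all 8 tested genes below 0. Glyma19g01050.1 had 4057, 2542 and 4133 CPM in the libraries labelled GmRAV1-ox, against 9368, 9150.2 and 7552 CPM in the DN50 libraries (log2 -1.28 ± 0.31, edgeR adjusted p = 0.101). Glyma05g08590.1 had 2688, 1656 and 2742 CPM in GmRAV1-ox, against 5884, 6407 and 4836 CPM in DN50 (log2 -1.27 ± 0.31). For both genes the DN50 libraries were close together and far above the others. Photorespiratory aminotransferases, which make glycine from glyoxylate, had 4 of 8 tested genes lower without overlap (50.0%, beside 13.1% of all tested genes) and 1 higher (12.5%, beside 12.9%). Of the 4, Glyma02g04320.3 had 419, 322 and 485 CPM in GmRAV1-ox, against 969, 711 and 759 CPM in DN50 (log2 -0.99 ± 0.25, edgeR adjusted p = 0.108). The strongest, Glyma08g41460.1, had 649, 500.1 and 1166 CPM in GmRAV1-ox, against 1765, 1193 and 1510.1 CPM in DN50. The strongest serine hydroxymethyltransferase, Glyma08g37270.1, which makes serine from glycine and the carbon unit that glycine cleavage releases, had 1715, 1319.8 and 2619 CPM in GmRAV1-ox, against 4070.4, 2619 and 3001 CPM in DN50, with GmRAV1-ox replicate 3 level with DN50 replicate 2. Phosphoglycolate phosphatase, the entry to photorespiration, had 607, 543 and 1127 CPM at Glyma09g38340.1 in GmRAV1-ox, against 1442, 1047 and 1116 CPM in DN50.

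Other partners had estimates on either side of 0. The H protein of the glycine cleavage complex, Glyma11g04530.1, had 696, 629 and 860.5 CPM in the libraries labelled GmRAV1-ox, against 901, 837 and 613 CPM in the DN50 libraries, with overlap, and its estimate of -0.11 was above 0 without scaling factors. Ribose-5-phosphate isomerase, a regeneration step of the Calvin cycle, had 5 of 5 tested genes above 0, with Glyma03g40640.1 at 715, 665 and 941 CPM in GmRAV1-ox, against 802, 727 and 481 CPM in DN50. CP12, the small stromal protein that binds GAPDH and phosphoribulokinase, was represented by Glyma10g01610.1 with 682, 554 and 1279.9 CPM in GmRAV1-ox, against 1112, 1057 and 1171 CPM in DN50 (log2 -0.41 ± 0.34, edgeR adjusted p = 0.504). All 4 CP12 genes had estimates below 0, from -0.60 to -0.41, and all 4 overlapped between groups. They stood in a list with Rubisco assembly factors and other genes of Rubisco, whose 13 tested genes had 7 estimates below 0, 6 above 0 and a median of -0.07, with 0 lower and 5 higher without overlap (38.5%, beside 12.9% of all tested genes). Of those 5, 4 were the subunits of the chaperonin that folds the Rubisco large subunit, which were picked from the list after their values were seen. Glyma12g08310.1, an alpha subunit, had 1076, 1368 and 1087 CPM in GmRAV1-ox, against 885, 771 and 599.7 CPM in DN50 (log2 0.65 ± 0.25, edgeR adjusted p = 0.199). Glyma08g18760.1, a beta subunit, had 1325, 1531 and 1136 CPM in GmRAV1-ox, against 978, 819 and 870.0 CPM in DN50 (log2 0.58 ± 0.24, edgeR adjusted p = 0.212). Enolase and pyruvate kinase below the triose phosphates had a median estimate of 0.12 over 24 tested genes, with Glyma19g37520.1, an enolase, at 241, 224 and 214 CPM in GmRAV1-ox, against 218, 239.6 and 160.3 CPM in DN50. Phosphofructokinase had a median of 0.07 over 13 tested genes, and its strongest gene, Glyma07g15170.1, had 69.9, 60.6 and 35.9 CPM in GmRAV1-ox, against 49.4, 77.4 and 57.1 CPM in DN50.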

How the data were processed

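RNA-seq of 6 soybean leaf libraries was used, 3 per label, all grouped by their titles. The deposited tables hold estimated counts and FPKM per gene, per the file headers; TopHat and Cufflinks are named in the submitters' processing notes, and the counting tool and genome build are not stated there. The deposited gene lengths were multiples of 3 in 100% of rows, a coding length. About 30% of genes listed above 0 per library had estimated counts that were not whole (beyond 0.005), as reads shared between near-identical copies give; this held for 53 of the 74 tested members.

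The estimated counts were rounded and tested with edgeR 4.0.16 (R 4.3.3, TMM, filterByExpr, robust quasi-likelihood test). P was adjusted by Benjamini and Hochberg's method across the 26272 genes tested, and calls have an adjusted p under 0.05. A prior count of 2 was used only for the log2 CPM behind the principal components and the correlations between libraries. Intervals of ratios are 95% and come from the fit. Standard errors of log2 estimates were derived from the estimate and the F statistic of its test. Alternatives were RLE size factors, no scaling factors, no count filter, an FPKM filter at 5, DESeq2 1.42.0, limma 3.58.1 on log2(FPKM + 1) and log2(FPKM + 0.1), a replicate block, and each library left out. The scripts were tested on simulated counts with known changes.

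Members and lists were chosen with earlier results of these data known. The wording of the lists was adjusted once the descriptions had been read, and a list by KEGG assignment was added after the data were seen. Genes were named by rule: every called member, and for each enzyme or list the gene with the highest mean FPKM and, for members, the smallest p. This gave 44 genes; 22 more were chosen after their values were seen. Best hits were matched to RefSeq symbols (assembly Glycine_max_v4.0) for 70 of 87 members; no coordinates were used, and no sequence is shown.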

Additional observations from a re-analysis of the deposited data

How the results depend on the processing

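Counts of calls were the least stable values. Over all genes the 184 calls (32 higher, 152 lower) became 293 without a count filter, 1707 with DESeq2, 1621 with a replicate block, and 0 to 5055 when 1 library was left out, the highest without GmRAV1-ox replicate 3. The 1 member called became 2 without scaling factors, 12 with DESeq2, 0 with either limma fit, 3 with the replicate block, and 0 to 25 with 1 library left out. The 0 calls among partner enzymes became 1 without scaling factors, 7 with DESeq2, 1 with limma on log2(FPKM + 1), 5 with the replicate block, and 0 to 23 with 1 library left out. The labels do not say whether replicate numbers pair the libraries. Deviations of same-numbered libraries correlated at -0.30, 0.40 and 0.30, against -0.50 to 0.37 for libraries of unlike number. With so few libraries these values cannot settle whether the numbers pair them. Under the block Glyma20g26530.1 (edgeR adjusted p = 0.0214) and Glyma04g11380.1 (0.0333) were called as well.

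Medians of log2 estimates kept their direction for the 74 members under all 14 alternatives (-0.48 to -0.11). By enzyme or place, moves by more than the spread between replicates under other scalings, tests and filters were these. Without scaling factors, which moved the median of all genes to 0.20, medians were -0.28 for the aldolase methyltransferase, 0.28 for phosphoglycerate mutase, -0.041 for the cytosol and 0.024 for genes with no stated place. With limma on log2(FPKM + 1), which moved the median of all genes to 0.17, they were -0.68 for Rubisco activase, -0.25 for the methyltransferase, -0.33 for the translocator, -0.049 for the cytosol and 0.021 for no stated place. With a pseudocount of 0.1 (all genes 0.19), they were -0.26 for the methyltransferase, 0.26 for the mutase, -0.049 for the cytosol and 0.022 for no stated place. With no count filter, glycine dehydrogenase moved to 0.26 and non-phosphorylating GAPDH to -0.60, as weak copies entered. With the FPKM filter at 5, glycine dehydrogenase moved to -1.23 and the mitochondrion to -1.20, as weak copies left. Single libraries moved medians by over 1.5 times as well. Without DN50 replicate 1 they were -0.71 for Rubisco activase, -0.17 for GAPDH, -0.053 for phosphoglycerate kinase, -0.54 for phosphoribulokinase, -0.15 for the cytosol and -0.032 for no stated place. Without GmRAV1-ox replicate 2 they were -0.23 for fructose-1,6-bisphosphatase, -0.32 for glycerate kinase, -0.36 for glycolate oxidase, -0.22 for the plastid and 0.090 for dimethylglycine dehydrogenase. Without GmRAV1-ox replicate 3 they were -0.68 for fructose-1,6-bisphosphatase, -0.70 for GAPDH, -0.74 for glycerate kinase, -0.93 for the epimerase, -0.32 for no stated place and 0.45 for dimethylglycine dehydrogenase. Without DN50 replicate 3 phosphoglycerate kinase was at -0.41. The sign depended on the library left out for the small subunit (-0.25 to 0.17), transketolase (-0.28 to 0.094), triosephosphate isomerase (-0.071 to 0.31), phosphoglycerate mutase (-0.085 to 0.093) and the mitochondrion (-0.0013 to 0.45).

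Of 921 values of named genes under alternatives, 835 kept direction and side of the threshold and 31 changed sign, all of genes with estimates near 0. Without scaling factors and with either limma fit, signs changed for Glyma07g15170.1 (0.059, 0.011 and 0.0098), Glyma11g04530.1 (0.083, 0.084 and 0.084), Glyma13g07610.1 (0.033, 0.026 and 0.026), Glyma19g06340.1 (0.17, 0.18 and 0.18) and Glyma20g38720.1 (0.093, 0.10 and 0.10), and with no count filter for Glyma19g06370.1 (-0.015). With 1 library left out, estimates ran from -0.34 to 0.071 for Glyma07g15170.1, -0.035 to 0.30 for Glyma09g40690.1, -0.45 to 0.048 for Glyma13g07610.1, -0.071 to 0.31 for Glyma15g04290.1, -0.56 to 0.0081 for Glyma15g41540.1, -0.26 to 0.17 for Glyma19g06340.1, -0.24 to 0.16 for Glyma19g06370.1, -0.027 to 0.24 for Glyma19g37520.1 and -0.28 to 0.094 for Glyma20g38720.1. Apart from the filters, the cause of these changes was not tested.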

Other observations

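The KEGG assignments in the table placed 23 further genes in the same pathways, 21 of them tested and 0 called by edgeR. At an unadjusted p under 0.05, 1 of the 21 was lower (beside 10.7% of all tested genes) and 2 were higher (beside 10.6%). The most abundant was Glyma13g07610.1, whose best hit has the symbol RBCS1 of a Rubisco small subunit, with 31307 FPKM on average. It had 13581, 10298 and 19694 CPM in the libraries labelled GmRAV1-ox, against 19815, 17451 and 11020.1 CPM in the DN50 libraries, so this small subunit gene overlapped between groups like the other small subunit genes (log2 -0.15 ± 0.38, edgeR adjusted p = 0.848).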
